A study of Mus musculus with 6 samples.

Results

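The 38 genes described here encode the proteins that bring glucose into the cell, break it down to pyruvate and lactate, and divert it through the pentose phosphate pathway. They were chosen by name from a fixed list and were found by gene symbol among the 55421 genes of the count table. All 38 had enough counts to be tested. The samples were 6 RNA sequencing libraries of primary mouse bone marrow-derived macrophages, cells grown in culture from marrow. Of these, 3 came from cells labelled Tmem175flox/flox Lyz2-Cre+/-, called knockout here, in which Cre recombinase is made from the lysozyme gene Lyz2, a gene of myeloid cells. The other 3 came from wild type (WT) cells. The labels name no treatment, age or separate animals, and p-values therefore reflect variation among these cultures only, some of which may be technical. No library carried Cre or floxed alleles alone, so loss of Tmem175, a potassium and proton channel of lysosomes, cannot be told apart from effects of Cre or its insertion.

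Glycolysis converts glucose to pyruvate in the cytosol and yields ATP without oxygen; lactate dehydrogenase then turns pyruvate into lactate, which leaves the cell through monocarboxylate transporters. The pentose phosphate pathway branches off after the first phosphorylation. Its oxidative branch makes NADPH, which phagocytes use for the oxidative burst and for antioxidant defence, and its non-oxidative branch makes ribose phosphate and returns carbon to glycolysis. Many steps can be carried out by several isozymes with different control, so the choice of isozyme is one feature of a cell type. Macrophages are known to shift toward glycolysis when activated by bacterial products.

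Total counts ran from 24179548 to 31542741 per library. The label check held in all libraries: Tmem175 stood at 14.3, 13.2 and 12.1 CPM (counts relative to the library total after TMM scaling) in knockout and at 32.8, 33.4 and 33.2 CPM in WT libraries. Among 10 macrophage markers all were detected, with Cd68, Adgre1 and Csf1r at 3241, 2447 and 2167 TPM (counts corrected for gene length and library total) on average. Lyz2, which holds the Cre insertion, was the 1 marker of this list that was called, with a log2 fold change of -0.89 (adjusted p = 0.00415, edgeR). Neutrophil markers summed to 709 to 764 CPM in knockout and 417 to 613 CPM in WT libraries, and dendritic cell markers to 97.5 to 126 CPM and 141 to 151 CPM. Of 10 neutrophil markers 8 were higher in knockout, with S100a9 and S100a8 at the highest levels. Mpo and Elane were lower (log2 fold changes -0.76 and -0.44). Ciita made up most of the dendritic sum, at 78.8 CPM in knockout and 102 CPM in WT libraries on average. Of 8 dendritic cell markers 7 were lower in knockout and 1, Xcr1, higher. None of these was called. The part of these markers in any result below was not tested. The first principal component of all tested genes, with 29.3% of the variance, was negative in knockout replicates 2 and 3 and WT replicate 3 (scores -17.4, -13.2 and -9.41) and positive in WT replicates 1 and 2 (19.9 and 17.5). Knockout replicate 1, at 2.62, lay between these and nearer to WT replicate 3 than to the other WT libraries, so the division by sign used below is loose at that library. The results that follow are given with that division in view, and it has no counterpart in the labels.

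The pathway was expressed at high levels, and in most steps a single isozyme supplied most of the transcripts. The 38 genes together took 0.848% ± 0.0474 of all counts in knockout and 0.800% ± 0.0392 in WT libraries (SD, n = 3 each). Of these genes, 19 lay in the top quintile of all 13588 tested genes by mean CPM. With merged exon lengths Aldoa, the aldolase that splits the phosphorylated hexose into trioses, had the highest level per length, at 995 ± 90.8 TPM (SD, n = 6). The pyruvate kinase gene Pkm followed at 729 ± 66.5 TPM and Gapdh at 645 ± 42.3 TPM. These neighbours in the order differ by more than their SD between Aldoa and Pkm, whereas Pkm and Gapdh lie within about the sum of theirs. Even so, Pkm stood above Gapdh in all 6 libraries with these lengths. The level of Taldo1, the transaldolase of the non-oxidative branch, came next at 555 ± 47.4 TPM. The order of Aldoa, Pkm and Gapdh depends on the length used. Merged exon and longest transcript lengths were 2911 and 1549 bases for Aldoa, 5001 and 2432 for Pkm and 4133 and 1420 for Gapdh. At the other end, the level of Pfkfb1, a liver and muscle form, was 0.949 ± 0.234 TPM. TPM values are used only to compare genes, because Lyz2 alone made up 78707 TPM on average and its lower level in the knockout raises the TPM of every other gene there.

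**Figure D1:**
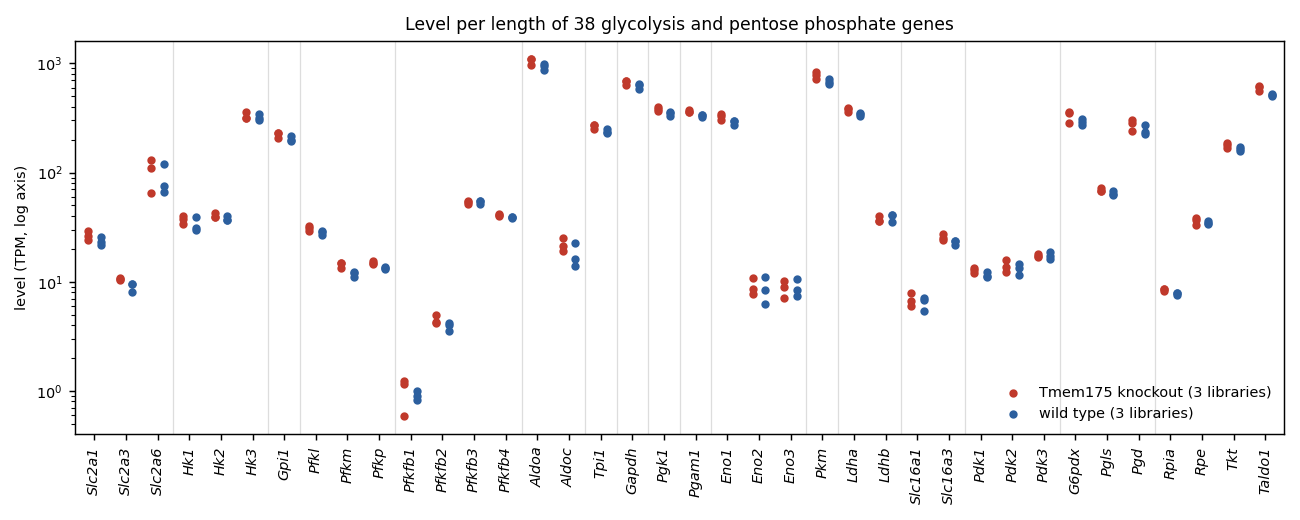
Level of each of the 38 genes in TPM on a log axis, ordered along the pathway, with grey lines between roles; each point is 1 library, red for the 3 knockout and blue for the 3 WT libraries. Aldoa, Pkm, Gapdh and Taldo1 are at the top and Pfkfb1 at the bottom, and the red and blue points of a gene lie close to each other beside the range between genes.

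Glucose enters through facilitative transporters of the Slc2a family. Of the 3 listed, Slc2a6 made up most of the transcripts, at 94.5 ± 29.0 TPM, against 25.0 ± 2.57 TPM for Slc2a1 and 9.80 ± 1.05 TPM for Slc2a3 (SD, n = 6). Slc2a1 and Slc2a3 encode the classical transporters of the plasma membrane, while the product of Slc2a6 (chromosome 2, 27021363 to 27027998) is known from lysosomal membranes of macrophages, so its transcript level is not a measure of uptake. The share of Slc2a6 within the 3 genes was 65.2%, 76.9% and 74.8% in knockout and 67.1%, 71.7% and 77.3% in WT libraries. Those ranges overlap over nearly their full width. Among other transporters of the family, Slc2a8 and Slc2a9 stood at 17.3 and 14.5 TPM on average. Slc2a2, the transporter of liver and pancreatic beta cells, had a count of 0 in all 6 libraries, where 3 counts, the limit that a count of 0 allows, correspond to 0.0952 to 0.125 CPM (counting error only).

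Phosphorylation of glucose is carried out by hexokinases, and Hk3, the form known from myeloid cells, dominated this step. Hk3 (chromosome 13, 55005985 to 55021385) stood at 325 ± 20.3 TPM, against 39.0 ± 2.11 TPM for Hk2, the inducible form, and 35.2 ± 4.27 TPM for Hk1, the widely expressed form (SD, n = 6). With merged exon lengths Hk2 stood above Hk1 in all 6 libraries, by less than their SDs combined, and their order turned with the length used. The share of Hk3 was 81.1% ± 1.83 in knockout and 81.7% ± 2.37 in WT libraries (SD, n = 3 each). It was 76.8% when the longest transcript was taken as the gene's length and 59.9% with the mean transcript length, so Hk3 led under each and the size depends on the length used. With the longest transcript Hk1 held 14.5% and Hk2 8.74%, and with the mean length 30.2% and 9.94%. Hkdc1 had counts of 0 throughout, and Adpgk, which phosphorylates glucose with ADP, lay at 12.4 ± 1.24 TPM (SD, n = 6). Gpi1, the isomerase that follows, stood at 212 ± 16.0 TPM.

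At the committed step, phosphofructokinase 1, no subunit held nearly all transcripts. Pfkl, the liver type subunit, had 29.5 ± 1.89 TPM, Pfkp, the platelet type, 14.2 ± 0.980 TPM and Pfkm, the muscle type, 13.1 ± 1.54 TPM (SD, n = 6). Pfkp and Pfkm did not differ beyond their spread. The share of Pfkl was 52.0% with merged exon lengths and 46.4% with the longest transcript, and the share of Pfkp went from 25.0% to 40.3% between them. With the mean transcript length Pfkp (45.5%) lay above Pfkl (43.8%), so which of these subunits leads cannot be settled from gene-level counts. The exons of Pfkp overlap those of Pitrm1 on the opposite strand, and those of Pfkm overlap Senp1. Counts of Pitrm1 amounted to 61.8% of the counts of Pfkp, and those of Senp1 to 224% of the counts of Pfkm. The strand setting of the counting is not given in the sources used here, so reads in these overlaps cannot be assigned.

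The activity of phosphofructokinase 1 is raised by fructose-2,6-bisphosphate, which the Pfkfb enzymes make and remove. Pfkfb3, the form with the strongest kinase activity, and Pfkfb4 supplied nearly all transcripts of this group, at 53.2 ± 1.73 and 39.9 ± 1.20 TPM (SD, n = 6). Pfkfb2, the heart form, stood at 4.20 ± 0.479 TPM. Exons of Pfkfb2 overlap Yod1 on the other strand, and exons of the low Pfkfb1 overlap Apex2, whose counts were 596% of its own. Pfkfb1 is therefore detected only within this limit, at counts of 51, 43 and 20 in knockout and 33, 30 and 29 in WT libraries.

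The later steps of glycolysis were carried by the common housekeeping forms. Aldoa held 98.1% ± 0.293 of aldolase transcripts and Aldoc, the brain form, the remainder (SD, n = 6). Eno1 held 94.6% ± 1.07 of enolase transcripts, at 308 ± 24.5 TPM, and the neuronal Eno2 and the muscle form Eno3 stood at 8.84 ± 1.87 and 8.76 ± 1.44 TPM. Tpi1, which interconverts the trioses, stood at 251 ± 16.9 TPM, the phosphoglycerate kinase gene Pgk1 at 364 ± 24.3 TPM and the phosphoglycerate mutase gene Pgam1 at 347 ± 18.7 TPM. With merged exon lengths Pgk1 stood above Pgam1 in all 6 libraries, by less than their SDs combined. Some forms known from testis or liver were near or at the limit: Pgk2 had 2 counts in 1 library and Pklr 1 count in 1 library. Gapdhs, the testis form of the dehydrogenase, was detected at 25 to 43 counts per library, or 2.10 ± 0.320 TPM. The muscle mutase Pgam2 was detected at 21.4 ± 3.28 TPM. Pkm gives rise to the M1 and M2 forms of pyruvate kinase by alternative splicing, and counts per gene do not separate them. Few reads were counted at near-identical copies: 78 other genes share at least 200 bases at 95% identity with Gapdh, and their counts amounted to 1.68% of those of Gapdh. These counts do not show how reads that map to several places were treated.

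Lactate formation had 1 dominant form, and export had Slc16a3 ahead of Slc16a1. Ldha, whose product favours lactate formation, held 90.9% ± 0.527 of lactate dehydrogenase transcripts in knockout and 89.8% ± 0.902 in WT libraries (SD, n = 3 each), and Ldhb, the heart type, the rest. Slc16a3, the exporter known from glycolytic cells, stood at 24.3 ± 1.85 TPM against 6.63 ± 0.855 TPM for Slc16a1 (SD, n = 6). Its share of the pair was 75.6%, 80.6% and 80.6% in knockout and 76.1%, 77.0% and 81.4% in WT libraries. Slc16a7, a transporter outside the list of 38, stood at 15.0 ± 0.561 TPM, between Slc16a3 and Slc16a1, so the shares of the pair do not describe all exporters. Bsg, the chaperone that these transporters need at the membrane, was high at 437 ± 14.0 TPM.

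The pyruvate dehydrogenase kinases, which hold back the use of pyruvate by pyruvate dehydrogenase in the mitochondrion, were low and even. Pdk3 stood at 17.3 ± 0.922 TPM, Pdk2 at 13.5 ± 1.49 TPM and Pdk1 at 12.1 ± 0.825 TPM (SD, n = 6). Pdk1 and Pdk2 did not differ beyond their spread. Pdk4, the form induced by fasting, lay below the test's count filter with 2 to 17 counts per library. Without correction for length Pdk1 led the group with 52.0% of the counts, since its transcripts are long.

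Of the 7 pentose phosphate genes, G6pdx, Pgd and Taldo1 had levels in the range of the lower glycolytic enzymes with merged exon lengths. The other 4 were lower. For G6pdx, Pgd and Tkt this grouping and their order depend on the length used. Merged exon and longest transcript lengths were 3080 and 2652 bases for G6pdx, 6447 and 2218 for Pgd and 7355 and 3223 for Tkt. In the oxidative branch, G6pdx, the glucose-6-phosphate dehydrogenase that commits carbon to the pathway, stood at 309 ± 35.9 TPM, the phosphogluconate dehydrogenase gene Pgd at 259 ± 29.8 TPM and the lactonase gene Pgls at 67.1 ± 3.46 TPM (SD, n = 6). In the non-oxidative branch Taldo1 and the transketolase gene Tkt, at 171 ± 11.1 TPM, were far above Rpe at 35.4 ± 1.90 TPM and Rpia at 8.15 ± 0.453 TPM, the epimerase and isomerase of the pentose phosphates. H6pd, which carries out the oxidative reactions in the endoplasmic reticulum, stood at 51.5 ± 1.36 TPM. The retrogene G6pd2 and the transketolase relatives Tktl1 and Tktl2 had no more than 1 count in any library. Exons of G6pdx overlap Ikbkg and exons of Tpi1 overlap Spsb2 on the opposite strand, whose counts were 18.1% and 19.0% of their own. For Rpe the figure for Kansl1l was 29.6%.

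**Figure D2:**
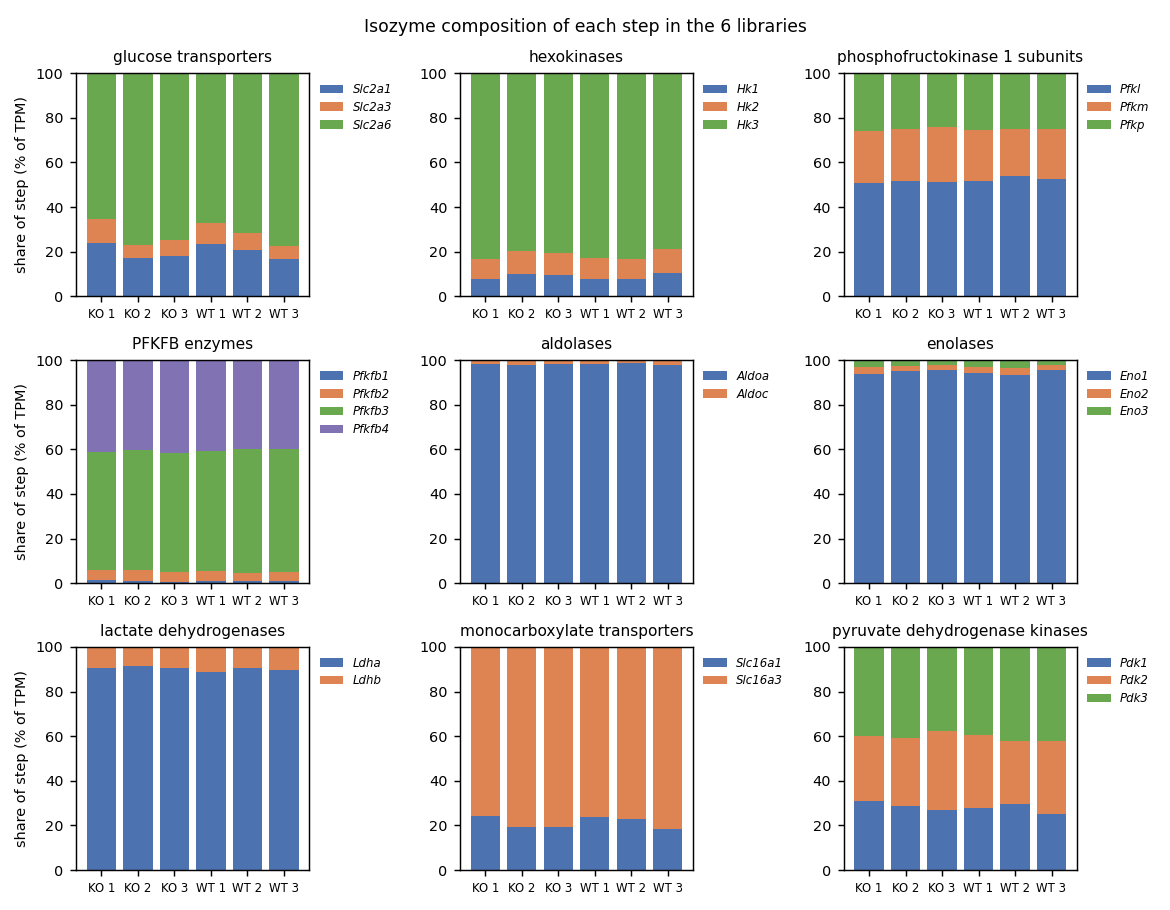
Stacked bars of the share of each isozyme in its step, in percent of the summed TPM, for the 9 steps with several listed genes; each bar is 1 library, knockout replicates 1 to 3 and then WT replicates 1 to 3. The make-up of a step is alike in all bars, and the glucose transporters vary most, with Slc2a6 at 65.2% to 77.3%.

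Isozyme shares were compared between the genotypes in an exact two-sided permutation test of the dominant form of each of the 9 steps, where 3 libraries against 3 cannot give a p below 0.1. No step passed, and the lowest adjusted p was 0.45. The share of Pfkl was 51.2% ± 0.478 in knockout and 52.8% ± 1.20 in WT libraries (exact p = 0.1). That of Pfkfb3 was 53.3% ± 0.264 and 55.0% ± 0.875 (exact p = 0.1; SD, n = 3 each). The groups do not overlap for Pfkfb3, at 53.0% to 53.5% against 53.9% to 55.5%, and the difference is 1.64 percentage points. For Pfkl the groups do not overlap either, by a margin below 0.1 percentage points between knockout replicate 2 and WT replicate 1.

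The coefficient of variation over the 6 libraries was above the median of tested genes in the same quintile of levels for 24 of the 38 genes, among them Hk1, Pgd and G6pdx at percentiles 94.0, 90.5 and 89.4 of their quintile. Rpia was among the steadiest, with 15.1, 14.4 and 14.3 CPM in knockout and 14.4, 14.3 and 14.2 CPM in WT libraries; its coefficient of variation over the 6 libraries, 2.10%, compares with a median of 6.63% for tested genes in the same quintile of levels. Pfkfb4 and Pgam1 were steady as well, at 2.55% and 2.87%. Slc2a6 was the most variable of the members in the top quintile. It stood at 68.0, 131 and 114 CPM in knockout libraries and at 72.9, 82.5 and 134 CPM in WT ones. Knockout replicates 2 and 3 and WT replicate 3 were high and the other 3 low, in both genotypes, and the highest library was 1.97 times the lowest. Its coefficient of variation was 29.5%, at percentile 99.6 of the 2718 tested genes in the top quintile, where the median is 4.10%. Aldoc had the same 3 libraries high, with 20.2, 25.5 and 22.2 CPM in knockout and 18.0, 15.4 and 25.8 CPM in WT libraries. Eno2 went the other way, at 16.7, 12.6 and 11.8 CPM in knockout and 13.6, 17.7 and 10.3 CPM in WT libraries.

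Many genes of the pathway had the same 3 libraries high. In 17 of the 38 genes (44.7%) knockout replicates 2 and 3 and WT replicate 3 all stood above the other 3 libraries, and this was so for 10.8% of all tested genes. Among the 19 members in the top quintile of levels it was so for 13 (68.4%), against 18.8% of the 2718 genes there. The 17 genes were Slc2a1, Slc2a6, Hk1, Gpi1, Pfkl, Aldoa, Aldoc, Gapdh, Pgk1, Eno1, Pkm, Ldha, Slc16a3, G6pdx, Pgd, Tkt and Taldo1. They take in most dominant forms of the listed steps and genes of both pentose phosphate branches. Pfkfb3, Tpi1, Pgam1 and Pdk3, each the leading or only listed gene of its step, did not follow the division. A further 4, Hk3, Eno2, Eno3 and Slc16a1, stood lower in all of these libraries, against 11.0% of all tested genes. For the housekeeping enzymes the size was small: Gapdh stood at 853, 895 and 913 CPM in knockout and at 820, 886 and 935 CPM in WT libraries, a ratio of highest to lowest of 1.14. For G6pdx and Pgd of the oxidative branch it was larger, while Pgls, with a ratio of 1.10, did not follow the division. G6pdx stood at 283, 342 and 347 CPM in knockout and at 288, 300.4 and 331 CPM in WT libraries, and Pgd at 502, 604 and 586 CPM and at 500.4, 515 and 611 CPM. The median deviation of the 38 genes from their own means was -0.04, 0.04 and 0.04 (log2) in knockout replicates 1 to 3 and -0.06, -0.03 and 0.06 in WT replicates 1 to 3. Over all tested genes such a median was between 0.0018 and 0.0040 in every library. TMM scaling and centring on each gene's own mean largely hold that value small, so it is not an independent background. The principal component is computed from all tested genes, these included, and no test was made of this division. Markers of other cells moved with it as well. All 3 of Itga2b, Ppbp and Pf4, of 5 tested erythroid and megakaryocyte markers, were lower in knockout replicates 2 and 3 and WT replicate 3, where that list summed to 99.6 to 131 CPM against 149 to 206 CPM in the other libraries. Mast cell and basophil markers summed to 26.3 to 37.8 CPM against 45.2 to 52.7 CPM. Of the 5 tested markers of that list only 1, Prg2, was lower in all of these libraries, and Kit was highest in knockout replicates 2 and 3. Of 8 dendritic cell markers 3 were lower and 1 higher, of 10 neutrophil markers 3 were higher and 1 lower, and of 10 macrophage markers Csf1r, Cd14 and Cd163 were higher and Mertk and Mrc1 lower. Their part in the levels of the 38 genes was not tested.

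**Figure D3:**
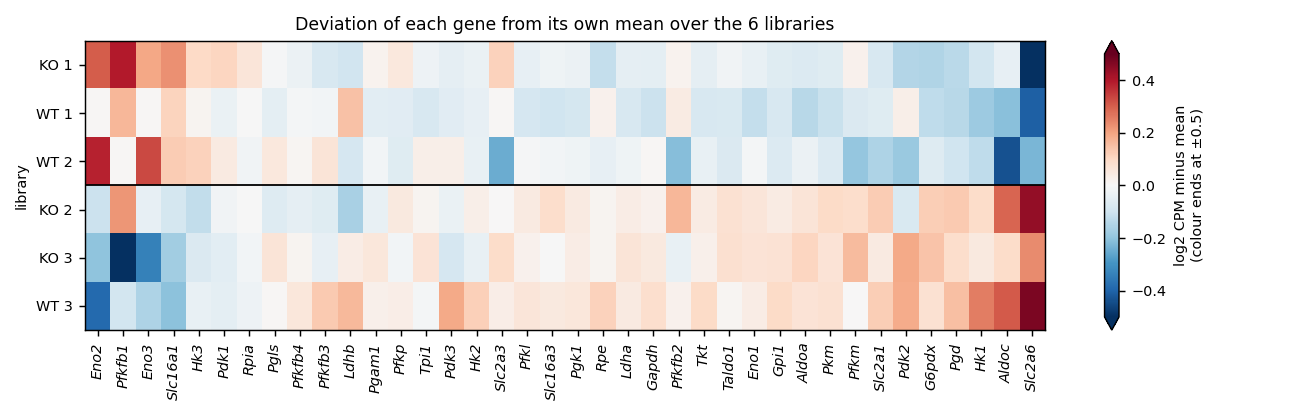
Log2 CPM of each of the 38 genes minus its own mean over the 6 libraries, with colour ending at ±0.5; columns are genes ordered by the mean difference between the 3 lower and the 3 upper rows, and rows are libraries, with a line between those with positive and those with negative scores on the first principal component. Slc2a6, Aldoc and Hk1 at the right are high in the lower 3 rows, and Eno2 at the left is low there.

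Promoter sequence is shown for genes that were high in the same libraries. RefSeq windows on GRCm38.p6, from 250 bases before to 50 after the start, were found for 37 of the 38 genes. The letters ACGTG on either strand, the core that hypoxia-inducible and E-box factors are known to recognise, occurred in 15 of 37 windows (40.5%) and in 19.7% of windows over 27025 genes of all kinds. A window with CACGTG holds this core once on each strand. Of the 17 genes above, 7 had it, and of the other 20 with a window 8 had it, so it was about as frequent in both. The letters TGACNNNGC on either strand, the core of the antioxidant response element, occurred in 2 of 37 windows (5.41%) and in 12.5% of all. The lines below give the 250 bases before the start, with matches in capitals, for Slc2a6 because it varied most, for Ldha because it holds the most ACGTG matches among the 17, and for Pgk1 because it holds 2, as does Slc16a3. G6pdx was the 1 of the 17 with TGACNNNGC.
Slc2a6, chr2:27027999-27028248, minus strand: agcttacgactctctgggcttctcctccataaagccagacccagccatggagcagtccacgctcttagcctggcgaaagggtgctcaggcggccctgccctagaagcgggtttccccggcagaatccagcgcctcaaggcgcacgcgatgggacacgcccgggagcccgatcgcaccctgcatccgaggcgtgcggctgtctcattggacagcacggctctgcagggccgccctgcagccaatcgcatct
Ldha, chr7:46845554-46845803, plus strand: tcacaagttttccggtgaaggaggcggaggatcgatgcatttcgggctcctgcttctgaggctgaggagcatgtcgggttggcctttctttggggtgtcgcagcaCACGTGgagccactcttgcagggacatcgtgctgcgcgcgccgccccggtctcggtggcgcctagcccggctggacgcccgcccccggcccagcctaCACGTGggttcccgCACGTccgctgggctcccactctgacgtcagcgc
Pgk1, chrX:106186850-106187099, plus strand: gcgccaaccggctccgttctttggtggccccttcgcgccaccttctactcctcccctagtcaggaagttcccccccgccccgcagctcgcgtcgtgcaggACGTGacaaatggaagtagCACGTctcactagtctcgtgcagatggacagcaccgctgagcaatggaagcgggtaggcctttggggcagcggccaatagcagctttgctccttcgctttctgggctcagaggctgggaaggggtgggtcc
Ldha held 5 matches on both strands in 3 stretches, Pgk1 held 2 and the Slc2a6 window held neither motif. A match describes letters only, and no match says nothing about a factor.

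Knockout against WT, the comparison of the design, gave no call among the 38 genes. Calls were so rare over all tested genes that their absence here says little about the members. In edgeR's quasi-likelihood test none was called at an adjusted p under 0.05, against 0.103% of all 13588 tested genes (0.0147% higher and 0.0883% lower in knockout), and the adjusted p-values of the members ran from 0.908 to 0.996. At an unadjusted p under 0.05 there was 1 member, Pfkfb3, against 5.44% of all genes. DESeq2 and limma-voom also called none. All 38 log2 fold changes lay between -0.15 and 0.20, within 0.2 of no change, and 80.8% of all tested genes did so too. That percentage takes in many genes of low level, whereas 35 of the 38 averaged 10 CPM or more. The median absolute log2 fold change was 0.049 for the members and 0.067 for all tested genes. Among tested genes that averaged 10 CPM or more it was 0.044. By this median the members were not closer to no change than genes of such levels. Of the 38 log2 fold changes 26 were positive and 12 negative, with a median of 0.03, against 49.6% positive and a median of -0.00090 over all tested genes. Most of the intervals were narrow: for 36 of the 38 genes the 95% confidence interval of the fold change lay within 1.5-fold in either direction. The exceptions were Slc2a6, at 0.723 to 1.61, and Pfkfb1, at 0.642 to 1.63. Smaller differences than these bounds are not shown to be absent.

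**Figure D4:**
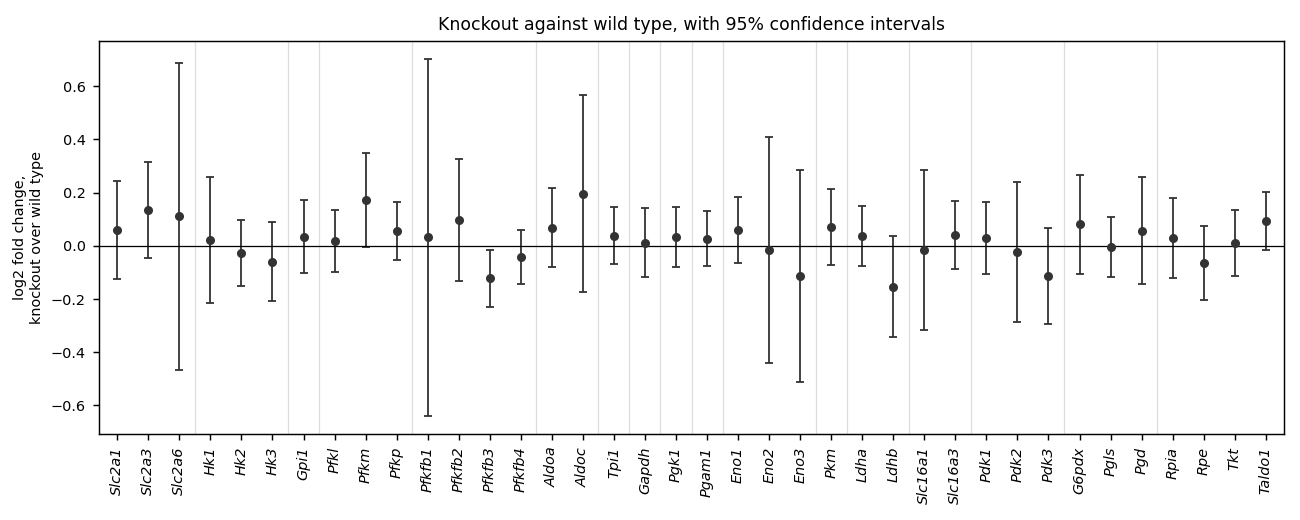
Log2 fold change of knockout over WT for the 38 genes in pathway order, with bars for 95% confidence intervals from edgeR's test, 3 libraries per group. Every point lies between -0.15 and 0.20, and the intervals of Slc2a6 and Pfkfb1 are the widest.

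The 5 genes with the smallest p-values came from different steps. Pfkfb3 (chromosome 2, 11471433 to 11554077) stood at 126, 128 and 130 CPM in knockout and at 132, 140 and 146 CPM in WT libraries. The groups did not overlap, with the knockout lower, and the log2 fold change was -0.12 (SE 0.05, 95% interval -0.23 to -0.02, adjusted p = 0.908, edgeR). Pfkm (chromosome 15, 98092589 to 98132451) stood at 14.6, 15.3 and 16.1 CPM in knockout and at 13.7, 12.6 and 14.4 CPM in WT libraries. Here too the groups did not overlap, with the knockout higher, and the log2 fold change was 0.17 (SE 0.08, 95% interval -0.0037 to 0.35, adjusted p = 0.918). These were the 2 members (5.26%) without overlap, against 10.8% of all tested genes (5.73% higher and 5.06% lower in knockout). Taldo1 stood at 394, 420 and 421 CPM in knockout and at 378, 379 and 402 CPM in WT libraries, where WT replicate 3 reached above knockout replicate 1 (log2 fold change 0.09, SE 0.05, adjusted p = 0.942). Ldhb stood at 18.6, 17.7 and 20.4 CPM and at 22.0, 18.7 and 22.2 CPM, and its groups overlapped (log2 fold change -0.15, SE 0.08, adjusted p = 0.950). Slc2a3 stood at 25.4, 23.4 and 25.0 CPM and at 23.5, 19.7 and 24.0 CPM, with 1 low WT library, replicate 2 (log2 fold change 0.13, SE 0.08, adjusted p = 0.961).

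Slc2a6 averaged 104 ± 32.6 CPM in knockout and 96.5 ± 32.9 CPM in WT libraries (SD, n = 3 each), and the difference was far within the spread of either group (log2 fold change 0.11, SE 0.26, adjusted p = 0.979, edgeR). Its value rests on which libraries were high: 2 of 3 knockout and 1 of 3 WT libraries were high. It turned to -0.09 without knockout replicate 2 and to -0.06 without WT replicate 1, and was 0.42 without WT replicate 3. With the score on the first principal component as a term, it was called lower in knockout, at -0.51 (SE 0.09, adjusted p = 0.0197). That component was computed from the same libraries, Slc2a6 included, and is higher on average in WT libraries, so the 2 terms share information.

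For the dominant forms of the other steps the ranges of the genotypes overlapped. Pkm (chromosome 9, 59656368 to 59679375) stood at 1156, 1289 and 1263 CPM in knockout and at 1115, 1148 and 1269 CPM in WT libraries (log2 fold change 0.07, SE 0.06). Aldoa stood at 914, 1001 and 1032 CPM and at 870.0, 937 and 1004 CPM (0.07, SE 0.07). In both the knockout values ran through the WT range. Hk3 stood at 424, 365 and 378 CPM and at 400.4, 430.1 and 386 CPM, with the lowest values in knockout replicates 2 and 3 (log2 fold change -0.06, SE 0.07). Ldha stood at 382, 405 and 412 CPM and at 373, 388 and 407 CPM (0.04, SE 0.05). Log2 fold changes of Gapdh, Pfkl, Pgam1, Pgk1, Gpi1, Tpi1, Slc16a3 and Eno1 lay between 0.01 and 0.06, that of G6pdx was 0.08 and that of Pdk3 -0.11. None of these 14 genes was called in any alternative fit.

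Genes around the pathway, from lists chosen by name, gave no calls either, where 0.103% of all tested genes were called. None of 9 tested other isozymes, 11 genes of mitochondrial pyruvate entry, 14 of gluconeogenesis and glycogen, 17 of side branches and partners, 19 regulators of glycolytic genes and 16 other hypoxia-responsive genes was called in either direction by edgeR. Their median log2 fold changes lay between -0.04 and 0.03. Hif1a, the oxygen-sensitive subunit that drives glycolytic genes, averaged 102 ± 5.85 CPM in knockout and 101 ± 4.08 CPM in WT libraries (SD, n = 3 each). Txnip, a glucose-responsive inhibitor of uptake, averaged 432 ± 12.7 and 425 ± 6.60 CPM. The smallest p of these lists was that of Gpd1, the cytosolic glycerol phosphate dehydrogenase that draws off a glycolytic triose, with 2.03, 1.63 and 1.86 CPM in knockout and 2.96, 3.16 and 3.62 CPM in WT libraries. Its groups did not overlap, and the log2 fold change of -0.82 (SE 0.18) did not pass (adjusted p = 0.381). Vegfa, a growth factor gene induced by hypoxia, had 91.6, 91.9 and 81.3 CPM against 75.7, 80.7 and 82.9 CPM, where WT replicate 3 lay above knockout replicate 3 (0.15, SE 0.06, adjusted p = 0.908). Pygl, which releases glucose phosphate from glycogen, had 141, 153 and 147 CPM against 130, 127 and 144 CPM, with knockout replicates 2 and 3 and WT replicate 3 highest (0.14, SE 0.06, adjusted p = 0.908). Other genes among those with the 2 smallest p-values of a list were Prpsap2, Adpgk, Ldhd, Dlat, Pc, Ak4, Epas1 and Vhl, at log2 fold changes of 0.21, 0.14, -0.33, -0.14, 0.26, -0.67, -0.47 and -0.06 and adjusted p-values from 0.881 to 0.968 (edgeR). Of these, Prpsap2 and Adpgk stood higher and Dlat and Vhl lower in knockout without overlap between the groups. Among the other genes of these lists, Gyg, Glo1 and Hif1an stood higher and Pygb, Bpgm and P4ha1 lower without overlap. Over all tested genes 10.8% had no overlap (5.73% higher and 5.06% lower in knockout). In the cell cycle list the genes with the 2 smallest p-values were Aurka and Rrm2 (log2 fold changes 0.23 and -0.15). That list, 18 genes, had a median of -0.04 and no call.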

How the data were processed

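Raw counts per Ensembl gene were deposited by the authors for 6 libraries. The submitters' processing notes name HISAT2, featureCounts and GRCm38, with versions, annotation and strand setting not given in the sources used here. Per the labels' protocols, cells were taken up in TRIzol and a SMARTER mRNA kit was used for the libraries. Symbols, positions and exon lengths came from GENCODE M21 (GRCm38), which matched 55240 of 55421 IDs. Aldoa matched 2 IDs, and the one with the higher counts was used. Ero1a and Pc were matched through RefSeq synonyms.

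In edgeR 4.0.16 (R 4.3.3), filterByExpr left 13588 genes, and TMM factors scaled the libraries. The genotypes were compared by the two-sided quasi-likelihood test, genotype as the only term, Benjamini-Hochberg adjustment over all 13588 genes and a threshold of 0.05. SE and 95% intervals were derived from the F statistic. TPM used the merged exon length of a gene. Promoters were taken from RefSeq windows. Transcripts alike in sequence were found by BLAST 2.17.0. The test was checked on simulated data. Alternatives used DESeq2 1.42.0 and limma 3.58.1. No pair of libraries of a genotype agreed within sampling noise (chi-square over degrees of freedom 3.89 to 19.6).

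Members, lists and tests were chosen with earlier results of these data known. Statistics in full are given for the dominant gene of each step and the 5 smallest p-values, and from related lists for the 2 smallest p-values of each; some of these genes are not reported here. The promoters and the division of the libraries were chosen after their values were seen.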

Additional observations from a re-analysis of the deposited data

How the results depend on the processing

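Of the 38 genes, 1 was called in the fit with the first principal component as a term (Slc2a6) and none in any other alternative. The median log2 fold change of the members was -0.045 with that term, 0.073 with library totals as the scaling, and between 0.0035 and 0.066 without 1 library. Over all genes, 2 higher and 12 lower calls became 12 and 30 with the DESeq2 test, 25 and 99 with the component as a term, 0 and 5 when genes under a mean of 10 CPM were left out, and 39 and 112 without a filter; without 1 library they ran from 0 to 2 and from 4 (without knockout replicate 3) to 10 (without knockout replicate 1). With the replicate block the counts were 3 and 14, the members called were 0 and their median was 0.031; it changed no call of a member. The labels do not say that replicate numbers pair wells, and same-numbered libraries deviated together with correlations of 0.057, -0.12 and 0.039.

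With the component as a term the log2 fold change turned to -0.51 for Slc2a6, 0.043 for Hk3, -0.078 for Gpi1, -0.055 for Pfkl, -0.048 for Aldoa, -0.076 for Gapdh, -0.042 for Pgk1, -0.021 for Eno1, -0.051 for Pkm, -0.036 for Ldha, -0.032 for Slc16a3 and -0.086 for G6pdx; the cause was not tested. Without 1 library it ran from -0.086 to 0.42 for Slc2a6, -0.018 to 0.054 for Pfkl, -0.037 to 0.057 for Gapdh and -0.0018 to 0.072 for Pgk1. The other 8 of 20 genes followed in this way kept their sign in all alternatives.

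Shares of the dominant isozyme moved with the gene length used. With the longest transcript, the mean transcript length and no length correction they were 76.8%, 59.9% and 69.2% for Hk3, 46.4%, 43.8% and 45.7% for Pfkl, 56.4%, 65.7% and 63.7% for Pfkfb3, 97.1%, 97.0% and 96.7% for Eno1, 93.4%, 94.5% and 95.2% for Ldha, 81.8%, 91.2% and 81.5% for Slc16a3 and 36.1%, 36.1% and 24.5% for Pdk3. Slc2a6 moved to 62.0% with the mean length and 64.7% without correction, and Aldoa to 98.8% and 99.0% with the longest and the mean length. Depth limits the low forms: Pfkfb1, with 20 to 51 counts per library, has the widest interval among the 38 genes.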

Other observations

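The division of libraries described for the pathway, with knockout replicates 2 and 3 and WT replicate 3 on one side, was counted in the related lists as well. Among 19 tested regulators of glycolytic genes 4 stood higher in all of these libraries, with Hif1a and Nfe2l2 among them, and 4 stood lower, with Epas1, Myc and Mlxip among them. Epas1, the second hypoxia-inducible factor subunit, stood at 11.0, 6.66 and 9.28 CPM in knockout and at 16.4, 13.1 and 7.95 CPM in WT libraries. Of 18 cell cycle genes 5 stood lower in these libraries and none higher. Of 16 other hypoxia-responsive genes 3 stood higher and 2 lower. Over all tested genes 10.8% stood higher and 11.0% lower in these libraries. Several marker lists had larger shares. Lower were 3 of 5 tested erythroid and megakaryocyte markers, 2 of 4 endothelial markers (1 higher) and 3 of 8 dendritic cell markers (1 higher). Higher were 3 of 10 neutrophil markers (1 lower) and 3 of 10 macrophage markers (2 lower). Of T, B and NK cell markers 1 of 6 was lower, and of mast cell and basophil markers 1 of 5. These are counts with no test.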
